A study of Mus musculus with 2 samples.

Results

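The Pax genes encode transcription factors that carry a paired domain. The members described here are the 7 genes Pax1, Pax2, Pax3, Pax6, Pax7, Pax8 and Pax9, taken by symbol from the 32286 entries of the gene list that both libraries share. They were counted in single cells of caudal tissue taken at embryonic day 8.5 from mouse embryos of the C57BL/6J strain, all wild type, untreated and pooled before dissociation, in 2 libraries called replicate 1 and replicate 2. All comparisons are therefore between cell classes of the same wild-type tissue. The labels do not state if each library had embryos of its own. The p-values measure how class differences vary between these 2 libraries, and that variation may be technical. Its estimate is pooled over the classes of a fit and draws on other genes. Of the 9 Pax symbols in the gene list, Pax4 and Pax5 are no members. Pax4 had 5 and 4 unique molecular identifiers (UMIs, each 1 captured transcript) and Pax5 had 13 and 1 UMIs in the kept cells of replicates 1 and 2, and Pax6os1, an antisense gene at Pax6, had 0 and 5 UMIs.

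The paired domain binds DNA, and mammalian Pax proteins fall into subgroups that share further parts of the protein. Pax1 and Pax9 form one subgroup and are known from sclerotome and pharyngeal endoderm, Pax2 and Pax8 (with Pax5) act in the nephric lineage, and Pax3 and Pax7 mark dorsal neural tube, neural crest and the muscle-forming part of the somite. Pax6 is known from the neural tube, the eye and the pancreas. At this stage of mouse development the caudal end of the embryo is still laying down spinal cord, somites, nephric cord and hindgut from progenitors in the caudal epiblast and the presomitic mesoderm.

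The subgroups can be read from the DNA that encodes the paired domain. The 7 stretches of 120 bases below come from GENCODE M21 transcripts on the GRCm38 assembly, run 5′ to 3′ on the coding strand and are placed by the longest peptide that all members share. Capitals mark the 53 bases that are the same in all 7 members. They are shown because the counts of close relatives are set beside each other throughout.
Pax1: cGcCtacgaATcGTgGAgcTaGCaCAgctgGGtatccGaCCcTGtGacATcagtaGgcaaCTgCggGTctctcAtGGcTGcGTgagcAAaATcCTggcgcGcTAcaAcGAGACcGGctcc
Pax2: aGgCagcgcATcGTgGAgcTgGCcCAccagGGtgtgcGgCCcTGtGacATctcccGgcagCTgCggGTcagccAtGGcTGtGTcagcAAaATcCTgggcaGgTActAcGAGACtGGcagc
Pax3: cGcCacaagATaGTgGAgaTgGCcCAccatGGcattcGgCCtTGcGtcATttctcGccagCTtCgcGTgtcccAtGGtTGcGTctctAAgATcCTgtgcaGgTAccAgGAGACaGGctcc
Pax6: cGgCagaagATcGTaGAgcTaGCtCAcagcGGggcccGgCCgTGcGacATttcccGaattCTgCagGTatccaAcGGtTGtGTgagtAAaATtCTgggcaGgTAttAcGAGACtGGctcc
Pax7: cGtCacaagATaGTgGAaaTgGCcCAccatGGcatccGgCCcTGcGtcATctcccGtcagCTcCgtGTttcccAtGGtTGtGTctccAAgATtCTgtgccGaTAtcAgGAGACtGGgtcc
Pax8: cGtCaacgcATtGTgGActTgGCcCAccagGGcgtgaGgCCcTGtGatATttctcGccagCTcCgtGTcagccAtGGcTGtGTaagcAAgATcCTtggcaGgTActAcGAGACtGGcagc
Pax9: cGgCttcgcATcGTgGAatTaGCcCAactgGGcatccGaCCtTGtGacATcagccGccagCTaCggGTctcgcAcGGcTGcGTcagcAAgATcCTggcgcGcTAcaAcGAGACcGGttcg
Pax2 and Pax8 shared 85.8% of these bases, Pax3 and Pax7 85.0% and Pax1 and Pax9 83.3%, against 61.7% to 75% for the other pairs. The longest run of identical bases between the longest transcripts of each pair was 27 bases for Pax2 and Pax8, 26 for Pax3 and Pax7, and 26 for Pax1 and Pax9. The longest such run over all pairs was 37 bases, between Pax3 and Pax6. These runs were sought over whole transcripts, and in the stretch shown Pax3 and Pax6 shared 68.3% of the bases. Pax6 had a second form of the stretch, and the form shown was in 4 of the 9 Pax6 transcripts that hold it. Pax8 also had a second form, and the form shown was in 3 of 5 transcripts. In both genes the form most like the other members was the one shown. The 53 shared bases and the percentages that involve Pax6 or Pax8 may therefore be raised by this choice. The other members had 1 form each. In GRCm38 the genes lie apart: Pax3 at chr1:78101267-78197134 on the minus strand and Pax7 at chr4:139737062-139833528 on the minus strand. Pax8 lies at chr2:24420560-24475599 on the minus strand, Pax6 at chr2:105668900-105697364 on the plus strand and Pax1 at chr2:147361925-147393295 on the plus strand. Pax9 lies at chr12:56691767-56712822 on the plus strand and Pax2 at chr19:44756045-44837871 on the plus strand. All 7 are annotated as protein-coding.

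The deposited matrices hold 295866003 UMIs over 30449 barcodes in replicate 1, and 150964773 UMIs over 18245 barcodes in replicate 2. Barcodes with at least 2000 UMIs and 0.3 to 10% mitochondrial UMIs were kept, which left 11244 and 8328 cells with medians of 17872.5 and 13685.5 UMIs. Of the kept barcodes, 114 occur in both libraries. Cells were gated into 15 classes by marker lists that hold no Pax gene, and a class is written with "-like" because markers alone name it. A gate was passed by 7184 cells (63.9%) in replicate 1 and 5248 cells (63.0%) in replicate 2. Each class had at least 2 of its own markers and none of another class among its 10 leading genes by fold, and 11 classes reached 50 cells in both libraries. Levels are given in CPM, the share of a gene in all UMIs of a class scaled to a total of 1000000. The gates select for these markers, so their levels describe the classes and do not test the class names. Tcf15 reached 1008 and 922 CPM in somite-like cells, Sox3 175 and 288 CPM in neural-like cells and Foxa1 171 and 186 CPM in endoderm-like cells. The libraries differed in makeup: blood-like cells numbered 3 in replicate 1 and 184 in replicate 2, and endoderm-like cells 698 and 254.

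Every member was found in both libraries, and most had 1 leading class. Replicate 1 is given first throughout. Pax3 had 4233 and 2795 UMIs in the kept cells, Pax2 2579 and 1650, Pax6 1756 and 784, Pax9 583 and 177, Pax8 146 and 476, Pax7 113 and 57 and Pax1 61 and 67. Cells that passed no gate held between 7.46% and 39.5% of a member's UMIs in a library, the highest share being that of Pax9 in replicate 2 and the lowest that of Pax1 in replicate 2.

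**Figure D1:**
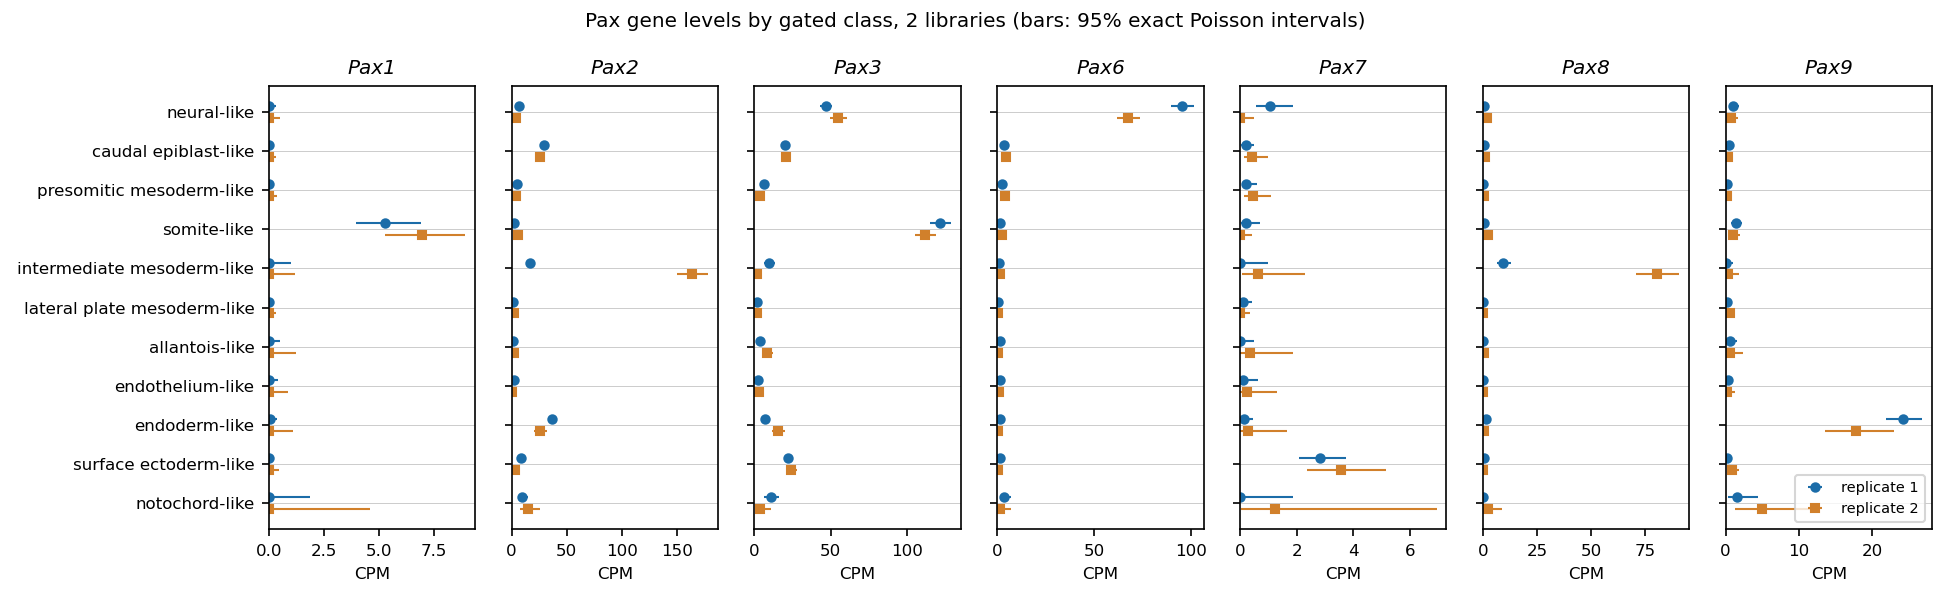
Level of each Pax gene in CPM (horizontal axis, linear, its own scale for each gene) in the 11 classes that reached 50 cells in both libraries (vertical axis); circles are replicate 1, squares replicate 2, and bars the exact 95% Poisson interval of the count. Pax1 and Pax3 lead in somite-like cells, Pax6 in neural-like cells, Pax7 in surface ectoderm-like cells and Pax9 in endoderm-like cells, while Pax2 leads in the intermediate mesoderm-like cells of replicate 2 at 163 CPM and Pax8 in those of both replicates at 9.24 and 80.2 CPM.

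Pax6, a neural progenitor factor, was the member that set neural-like cells apart. It reached 95.4 CPM (exact 95% Poisson interval 89.8 to 101) and 67.3 CPM (61.6 to 73.5) in neural-like cells, against 3.67 and 4.51 CPM in caudal epiblast-like cells, the progenitor class beside them. Neural-like cells held 60.6% and 63.8% of all Pax6 UMIs. The difference was 4.25 ± 0.33 on the log2 scale (SE; edgeR quasi-likelihood test, Benjamini-Hochberg adjusted p = 4.35e-07, n = 2 libraries), and both libraries lay on the same side. After every cell was thinned to 10000 UMIs, 59.5% and 42.8% of neural-like cells had a Pax6 UMI. The share in endothelium-like cells, which should lack it, was 0.838% and 0.889%, with median depths before thinning of 19962 and 15234 UMIs in neural-like and 22190.5 and 14060 UMIs in endothelium-like cells. Without thinning, 74.7% and 55.1% of neural-like cells had a Pax6 UMI. In the order of levels, neural-like cells stood above the next class in both libraries. Caudal epiblast-like cells came next and within each library stood above presomitic mesoderm-like cells (2.40 and 4.08 CPM) and notochord-like cells (3.56 and 1.24 CPM), but the ranges over both libraries overlap. These differences were not tested.

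Pax3, which marks dorsal neural tube and paraxial mesoderm, was the second member higher in neural-like than in caudal epiblast-like cells. Its level was uneven among neural-like cells, at 127 and 189 CPM in the dorsal and 6.33 and 3.20 CPM in the ventral ones, described below. As a whole they stood at 46.9 and 54.8 CPM, against 19.8 and 20.8 CPM in caudal epiblast-like cells. The library sums of the 2 classes thus did not overlap. The log2 difference was 1.31 ± 0.30 (SE; edgeR adjusted p = 0.0119). Pax2 had 7.08 and 3.91 CPM in neural-like cells, against 29.5 and 25.6 CPM in caudal epiblast-like cells, and its log2 difference of -2.24 ± 0.70 (SE) missed the threshold (edgeR adjusted p = 0.0643). Without the expression filter, and with at least 3 markers asked of each cell, it passed (edgeR adjusted p = 0.00279 and 0.0393). The other members were at or below 1.75 CPM in both classes, and their differences did not pass the test. Of the 7 members 2 were called, both higher, beside 7.85% of all 14425 tested genes called, 3.99% higher and 3.87% lower. The median log2 difference was 0.81 over the 6 members with a UMI in either class and -0.00 over all tested genes. Without library as a block, 1 member was called, since Pax3 then had an edgeR adjusted p of 0.133.

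The same pattern ran through cells between the classes. Cells whose highest scores were neural and caudal epiblast were sorted into 6 bins by the difference of the scores, including cells that passed neither gate. Pax6 stood at 95.2 and 70.7 CPM in the most neural bin, against 2.48 and 3.75 CPM in the most epiblast bin, and it was higher in each successive bin of both libraries. Pax2 ran the other way, with 6.42 and 5.08 CPM in the most neural bin, against 23.0 and 25.8 CPM in the most epiblast bin. Pax3 reached 58.9 and 55.9 CPM in the most neural bin, against 7.76 and 17.3 CPM in the most epiblast bin, and in replicate 1 its highest value was 63.8 CPM, in the fourth bin. These bins describe cells of 1 tissue in order of marker scores and not a time course.

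**Figure D2:**
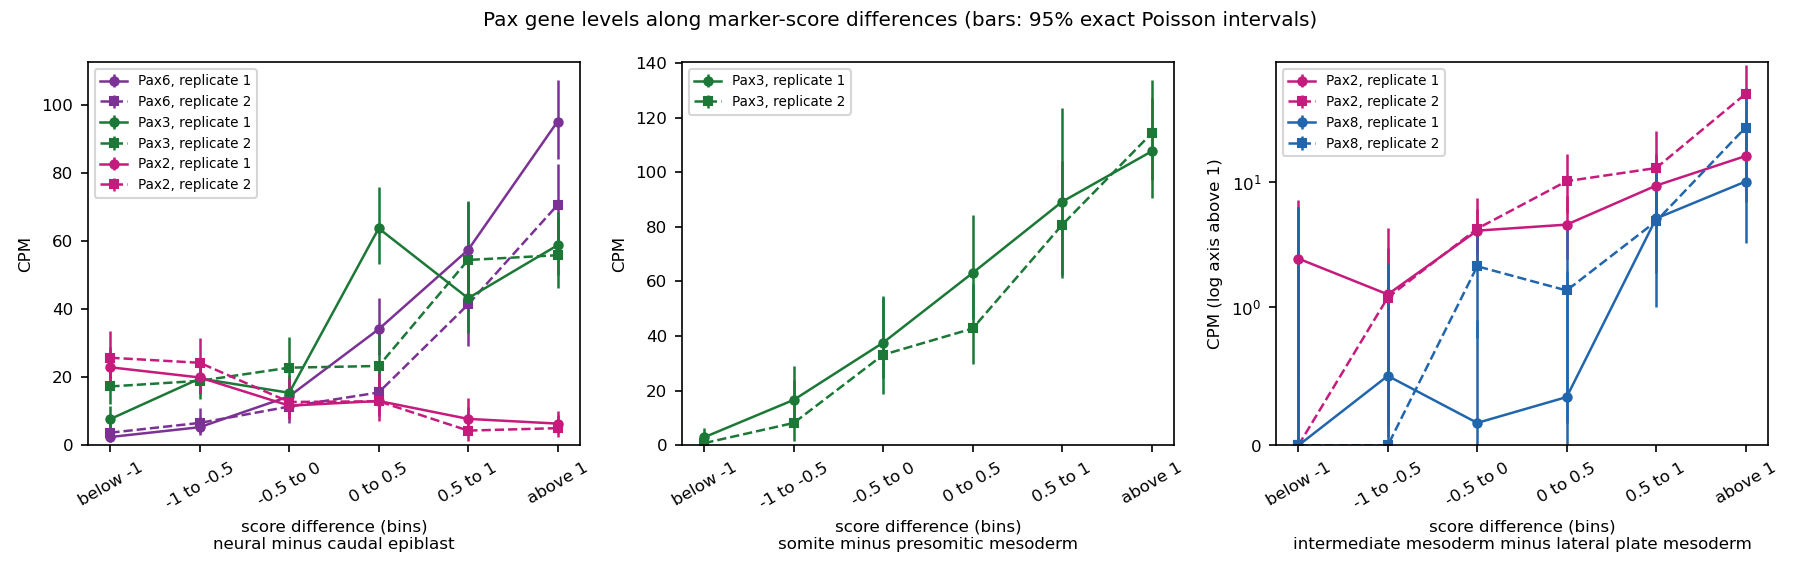
Level in CPM (vertical axis; log scale above 1 in the right panel) of Pax genes in 6 bins of cells (horizontal axis) ordered by the difference of 2 marker scores; circles with solid lines are replicate 1, squares with dashed lines replicate 2, and bars are exact 95% Poisson intervals. Pax6 and Pax3 are higher and Pax2 lower toward the neural side, and Pax3 climbs to 108 and 114 CPM on the somite side. Pax2 and Pax8 are highest in the last bin on the intermediate mesoderm side, which in replicate 2 holds 17 cells. A panel holds only cells whose 2 highest scores are the 2 compared. Most Pax2 of the intermediate mesoderm-like class in replicate 2 is therefore not in the right panel.

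Other genes that pattern the neural tube were higher in neural-like cells as well. Of 20 dorsoventral patterning genes, 13 could be tested, 10 were higher and Msx1, a roof plate and mesoderm factor, was lower than in caudal epiblast-like cells. Olig2, a motor neuron progenitor factor, had 3.94 and 17.9 CPM in neural-like cells and 0 UMIs in caudal epiblast-like cells. Dbx2, an interneuron progenitor factor, had 6.63 and 16.7 CPM in neural-like cells, against 0.198 and 0.170 CPM in caudal epiblast-like cells. Nkx6-1, a ventral progenitor factor, had 22.8 and 34.1 CPM in neural-like cells, against 3.32 and 1.36 CPM. The median log2 difference of the 13 genes was 2.91, beside -0.00 over all tested genes. Among 7 genes for Pax cofactors, Tle1, a Groucho-family corepressor, was higher (58.9 and 61.1 CPM, against 40.3 and 27.9 CPM in caudal epiblast-like cells). Tle3, of the same family, was lower (33.1 and 49.8 CPM, against 60.0 and 71.2 CPM).

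Within neural-like cells, Pax3 was a dorsal gene and Pax6 was not separated along this axis by the test. Neural-like cells were split by dorsal and ventral genes that include no Pax gene, giving 125 and 97 dorsal, 96 and 101 ventral and 328 and 283 remaining cells. Pax3 had 127 and 189 CPM in dorsal cells, against 6.33 and 3.20 CPM in ventral cells, and 26.1 and 27.1 CPM in the remaining cells. The library sums of the 3 groups did not overlap in Pax3. The log2 difference between dorsal and ventral cells was 4.77 ± 0.22 (SE; edgeR adjusted p = 2.55e-21). By library alone the Pax3 difference was 4.23 and 5.57. The small SE and p draw mostly on the spread of other genes, since this fit had 2 residual and 40.3 prior degrees of freedom. Pax6 had 91.6 and 71.1 CPM in dorsal cells, against 74.9 and 41.6 CPM in ventral cells, with 104 and 75.3 CPM in the remaining cells. Its log2 difference of 0.45 ± 0.13 (SE) missed the threshold (edgeR adjusted p = 0.0625), and with a stricter gate on both axes it was 0.75 with an edgeR adjusted p of 0.0345. Pax2 had 6.65 and 7.31 CPM in dorsal cells, against 8.27 and 3.84 CPM in ventral cells, and did not pass the test. Pax7, the sister gene of Pax3, had 8 and 0 UMIs in dorsal cells, against 1 and 0 UMIs in ventral cells. The filter on low counts left Pax7, Pax1, Pax8 and Pax9 out, so 3 members were tested and 1 was called, beside 2.56% of the 10223 tested genes called, 1.16% higher and 1.4% lower.

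**Figure D3:**
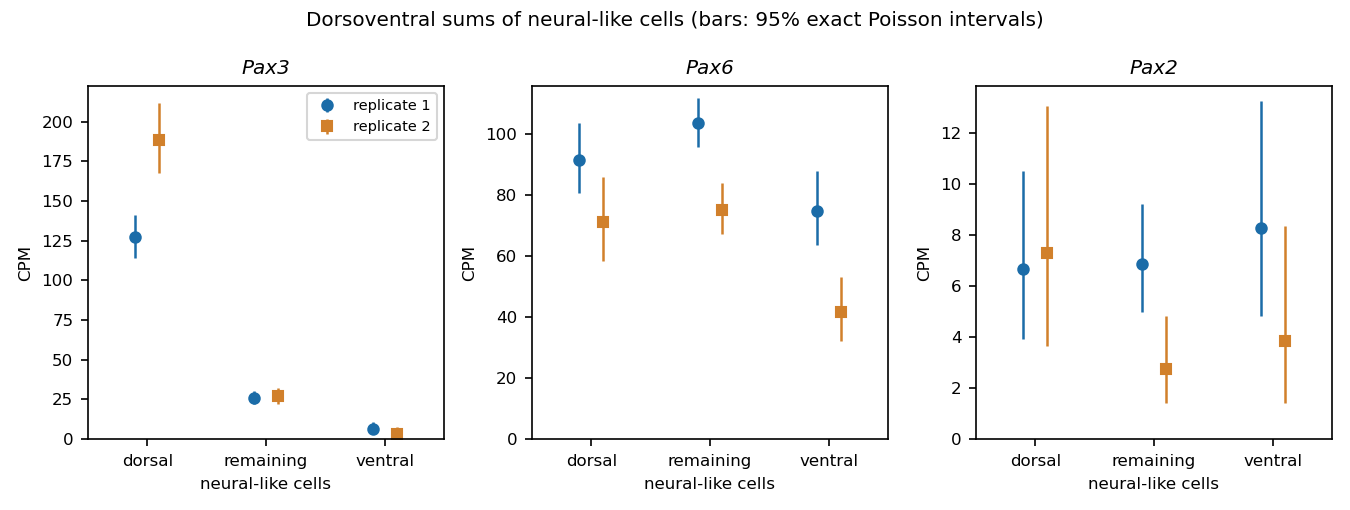
Level of Pax3, Pax6 and Pax2 in CPM (vertical axis, from 0) in dorsal, remaining and ventral neural-like cells (horizontal axis); circles are replicate 1, squares replicate 2, and bars are exact 95% Poisson intervals of the count. Pax3 is at 127 and 189 CPM in dorsal cells and at 6.33 and 3.20 CPM in ventral cells, while the Pax6 sums of the 3 groups lie between 41.6 and 104 CPM.

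Dorsal and ventral cells also differed in genes of other lists. Of the 9 patterning genes that the split did not use, 4 could be tested: Irx3, a progenitor factor, was higher in dorsal cells (50.98 and 163 CPM, against 33.6 and 85.2 CPM in ventral cells). Neurog2, a proneural factor, was lower (6.28 and 2.66 CPM, against 13.1 and 25.0 CPM in ventral cells). The corepressor Tle1 was lower in dorsal cells, with 44.3 and 29.9 CPM, against 76.4 and 88.4 CPM in ventral cells. Ret, the GDNF receptor listed for the nephric lineage, was lower too, with 13.7 and 13.9 CPM, against 25.3 and 69.8 CPM. Tle5 was also lower and Greb1l higher in dorsal cells.

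Detection of Pax3 and Pax6 in the same neural-like cell was close to what their separate shares give. At 10000 UMIs per cell, 64 of 496 neural-like cells (12.9%) in replicate 1 and 41 of 428 (9.58%) in replicate 2 had both, against 11.8% and 8.89% if the genes were detected independently. The odds ratio of detecting both was 1.36 (exact conditional 95% interval 0.84 to 2.23) and 1.18 (0.719 to 1.94). Pax2 and Pax3 in caudal epiblast-like cells had odds ratios of 1.02 (0.664 to 1.55) and 1.03 (0.599 to 1.72). These intervals include 1 and cover counting of cells only.

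Among the 11 classes fitted together, somite-like cells had the highest Pax3 and were nearly the only class with Pax1. Dorsal neural-like cells, a part of the neural-like class, stood at 127 and 189 CPM of Pax3. In replicate 1 this lay within the somite-like interval of 115 to 129 CPM, and in replicate 2 above that of 105 to 119 CPM. The difference was not tested. Pax3 had 122 CPM (115 to 129) and 112 CPM (105 to 119) in somite-like cells, against 6.41 and 3.70 CPM in presomitic mesoderm-like cells, from which somites form. Its log2 difference was 4.46 ± 0.35 (SE; edgeR adjusted p = 3.07e-07). Of somite-like cells thinned to 10000 UMIs, 64.3% in each replicate had a Pax3 UMI, against 5.54% and 3.65% of presomitic mesoderm-like cells and 1.68% and 0.444% of endothelium-like cells. Between the classes, Pax3 was higher in each successive bin of both libraries, with 108 and 114 CPM in the bin most like somite and 3.01 and 0.852 CPM in the bin most like presomitic mesoderm. Neural crest-like cells, 5 and 11 in number and in no test, had 414 and 369 CPM.

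Pax1, the sclerotome member, was confined to few cells. It had 54 and 60 UMIs in somite-like cells (5.29 and 6.94 CPM), which was 88.5% and 89.6% of its UMIs among the kept cells. Presomitic mesoderm-like cells held 0 Pax1 UMIs in both libraries, and at a floor of 3 counts over both libraries the level was at least 56.5-fold higher in somite-like cells. Among the classes in the fit Pax1 had UMIs elsewhere only in endoderm-like cells of replicate 1, where it had 1, so it passed the expression filter through the class where it is high. No p-value is given for it as support, and DESeq2 did not call it (adjusted p = 0.562). Only 25 of 544 and 27 of 518 somite-like cells had a Pax1 UMI, and the highest counts in a cell were 7 and 6. Pax9, its sister gene, had 1.37 and 1.04 CPM in somite-like cells, against 0.172 and 0.190 CPM in presomitic mesoderm-like cells. That is 14 and 9 UMIs, against 3 and 2 UMIs. The log2 difference of Pax9 was 1.87 ± 0.49 (SE; edgeR adjusted p = 0.0212), and the call was lost without the block (0.0506), with the stricter gate (0.0729) and on thinned counts (0.294). Pax2, Pax6, Pax7 and Pax8 did not pass the test. Of the 7 members 3 were called, all higher and Pax1 among them, beside 9.47% of all tested genes called, 4.99% higher and 4.48% lower. The median log2 difference was 1.44 over the members, Pax1 included, and 0.00 over all tested genes. Since Pax1 passed the filter through somite-like cells, its call and its place in this median are no support.

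Pax1 and Pax3 were rarely detected in the same somite-like cell. Of the 15 somite-like cells with a Pax1 UMI after thinning in each replicate, 3 in replicate 1 and 6 in replicate 2 also had Pax3, against 64.3% of all thinned somite-like cells. The odds ratio was 0.13 (exact conditional 95% interval 0.0233 to 0.493) in replicate 1 and 0.358 (0.103 to 1.15) in replicate 2, so only the interval of replicate 1 lies below 1. Somite-like cells were also split by a UMI of Dmrt2, a dermomyotome factor, a split chosen after its values were seen and given without a test. Pax3 stood at 164 and 135 CPM in cells with Dmrt2, against 111 and 112 CPM in cells without it. Pax1 had 0 and 6.72 CPM with Dmrt2, against 9.34 and 6.69 CPM without it, so the libraries differed.

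**Figure D4:**
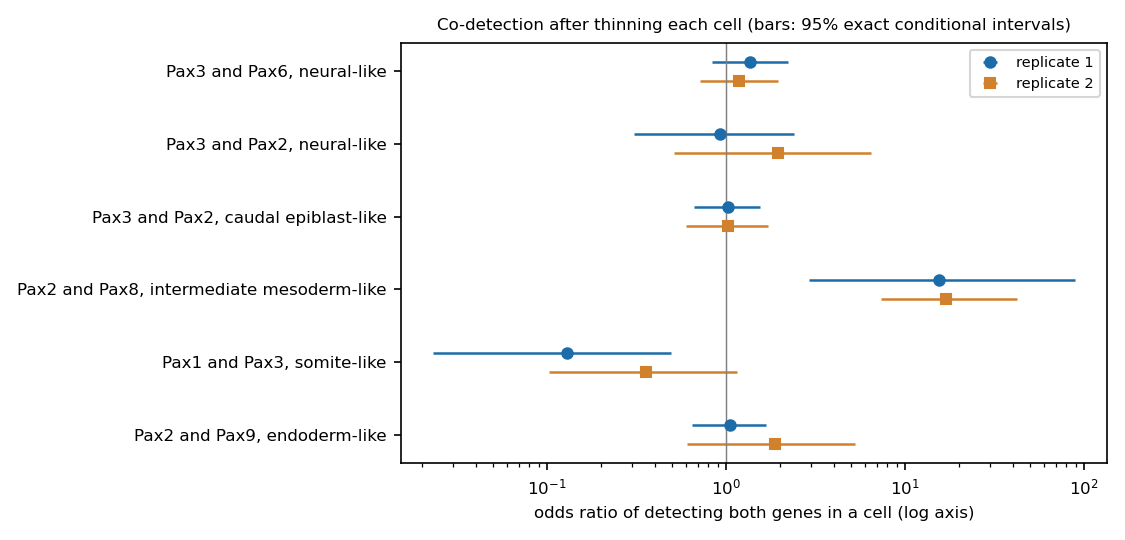
Odds ratio of detecting 2 Pax genes in the same cell (horizontal axis, log scale) for 6 pairs of genes, each in 1 class (vertical axis), after thinning each cell to 10000 UMIs; circles are replicate 1, squares replicate 2, bars exact conditional 95% intervals, and the line marks 1. Pax2 and Pax8 in intermediate mesoderm-like cells lie at 15.5 and 17.0, Pax1 and Pax3 in somite-like cells at 0.13 and 0.358, and the intervals of the other pairs include 1.

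Genes of the somite compartments and of Pax partners differed between the same classes. Eya proteins act with Pax proteins in muscle, kidney and sense organs. Eya2 was higher in somite-like than in presomitic mesoderm-like cells (28.1 and 19.5 CPM, against 2.23 and 0.474 CPM), as was Eya1 (22.3 and 37.2 CPM, against 4.47 and 10.9 CPM). All 4 testable genes of 8 for dermomyotome and muscle were higher. They were Dmrt2 (76.7 and 60.9 CPM, against 0.859 and 1.71 CPM), the muscle determination factor Myf5 (9.51 and 2.54 CPM, against 0.286 and 0.190 CPM), Sim1 and Met. Twist1, a mesoderm factor, was higher in somite-like cells (222 and 201 CPM, against 18.1 and 8.82 CPM in presomitic mesoderm-like cells), and so was Foxc1.

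Neural-like and somite-like cells, the same sums as above set against each other, differed in Pax6 and Pax3. Pax6 had 95.4 and 67.3 CPM in neural-like cells, against 1.37 and 2.43 CPM in somite-like cells, a log2 difference of 5.26 ± 0.37 (SE; edgeR adjusted p = 8.54e-08). Dorsal neural-like cells had 127 and 189 CPM of Pax3, but the whole neural-like class was lower than somite-like cells. Pax3 stood at 46.9 and 54.8 CPM in neural-like cells, against 122 and 112 CPM in somite-like cells. Its log2 difference was -1.22 ± 0.30 (SE; edgeR adjusted p = 0.00913), and neither DESeq2 (adjusted p = 0.0546) nor the fit without the block (edgeR adjusted p = 0.0995) called it. Pax1 had 0 UMIs in neural-like cells and was at least 37.5-fold lower than in somite-like cells at the same floor, a value given without a p for the same reason (DESeq2 did not call it). Of the 7 members 1 was called higher and 2, Pax1 among them, lower, beside 13.8% of all tested genes called, 7.4% higher and 6.39% lower. The median log2 difference was -0.30 over the members and 0.00 over all tested genes. The member median counts Pax1 on the lower side, so its sign is no support for a shift of the members. Gene lists of the same lineages also differed: 11 of 13 tested dorsoventral genes were higher in neural-like cells, and 3 of 4 dermomyotome and muscle genes were lower.

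Pax2 and Pax8, the nephric members, were the pair that separated intermediate mesoderm-like from lateral plate mesoderm-like cells, and the libraries differed widely in both. Pax2 had 16.8 CPM (12.9 to 21.6) in replicate 1 and 163 CPM (149 to 178) in replicate 2 in intermediate mesoderm-like cells, against 1.04 and 2.22 CPM in lateral plate mesoderm-like cells. Pax8 had 9.24 CPM (6.40 to 12.9) and 80.2 CPM (70.6 to 90.7) in intermediate mesoderm-like cells, against 0.115 and 0.185 CPM in lateral plate mesoderm-like cells. In each library the intermediate mesoderm-like sum was the higher one, but the level in replicate 2 was far above that in replicate 1 for both genes. The log2 difference was 5.56 ± 0.81 for Pax2 (SE; edgeR adjusted p = 0.000633) and 6.53 ± 0.79 for Pax8 (SE; edgeR adjusted p = 0.000126). By library it was 3.76 and 5.99 for Pax2 and 5.00 and 7.32 for Pax8. Pax3, at 9.51 and 1.91 CPM against 1.44 and 1.66 CPM, missed the threshold (edgeR adjusted p = 0.103), though DESeq2 (adjusted p = 0.0198), no expression filter and the stricter gate each called it. Of the 7 members 2 were called, both higher, beside 3.44% of all tested genes called, 1.14% higher and 2.29% lower, and the median log2 difference was 1.57 over the 6 members with a UMI in either class and -0.01 over all tested genes.

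The difference between libraries lay in how many cells carried the genes and in how much each cell held. After thinning, 9.71% and 41.6% of intermediate mesoderm-like cells had a Pax2 UMI and 5.14% and 34.7% a Pax8 UMI, against 1.96% and 0% (Pax2) and 0% and 0% (Pax8) of endothelium-like cells. The 0 of 358 and 0 of 225 endothelium-like cells allow shares of up to 1.03% and 1.63% (exact Clopper-Pearson). The most Pax2 UMIs in a cell were 9 and 19, and the most Pax8 UMIs 6 and 11. The markers of the gate moved with the libraries as well. Emx2 had 8.15 and 37.5 CPM in this class, Gata3 27.4 and 99.3 CPM and Wt1 5.98 and 15.9 CPM, while Osr1 had 279 and 168 CPM and Lhx1 136 and 148 CPM. Their part in the library difference of Pax2 and Pax8 was not tested. Of the 204 and 217 cells of the class, 78 and 62 lay within 0.25 score units of the edge of the gate, and the stricter gate gave a mean Pax2 level of 152 CPM over both libraries, against 90.0 CPM with the gate used here.

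Pax2 and Pax8 were detected in the same cell more often than their separate shares give, though many cells had only 1 of them. In replicate 1, 12 thinned cells had Pax2 only and 4 Pax8 only, and in replicate 2, 23 and 11. In replicate 1, 5 of 175 thinned intermediate mesoderm-like cells (2.86%) had both, against 0.4996% if independent, and in replicate 2, 49 of 173 (28.3%), against 14.4%. The odds ratios were 15.5 (exact conditional 95% interval 2.92 to 89.2) and 17.0 (7.39 to 42.5), and both intervals lie above 1. Cells whose 2 highest scores were intermediate and lateral plate mesoderm were sorted by the difference of these scores. Among them Pax2 stood at 16.0 and 50.4 CPM in the last bin on the intermediate side, against 2.42 and 0 CPM in the first bin on the lateral plate side. The last bin held 29 and 17 cells with 8 and 13 Pax2 UMIs. In the bin before it, with 61 and 44 cells, Pax2 was at 9.31 and 12.9 CPM. The whole intermediate mesoderm-like class had 62 and 513 Pax2 UMIs. In replicate 2 most of its Pax2 thus lay in cells outside this axis.

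Other genes listed for the nephric lineage were partly higher in the same class. Of 10 nephric genes 8 could be tested and 2 were higher than in lateral plate mesoderm-like cells. Gfra1, the GDNF co-receptor, had 1.63 and 22.3 CPM, against 0.173 and 0.646 CPM in lateral plate mesoderm-like cells, and its level was again higher in replicate 2. Sall1, a kidney zinc finger factor, had 56.5 and 101 CPM, against 31.7 and 58.1 CPM. Among the partners, Eya1 (20.1 and 35.0 CPM, against 1.39 and 4.98 CPM) and Dach1 were higher. Somite genes were among those higher in intermediate mesoderm-like cells: Sim1 had 7.88 and 13.05 CPM, against 0.115 and 0 CPM, and Foxc1 and Sox9 were also higher.

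Against somite-like cells, intermediate mesoderm-like cells had more Pax2 and Pax8 and less Pax3. Pax2 stood at 16.8 and 163 CPM, against 1.96 and 5.78 CPM in somite-like cells, with a log2 difference of 4.36 ± 0.77 (SE; edgeR adjusted p = 0.00266). Pax8 had 9.24 and 80.2 CPM, against 0.490 and 2.43 CPM, with a log2 difference of 4.49 ± 0.71 (SE; edgeR adjusted p = 0.00115). Pax3 had 9.51 and 1.91 CPM, against 122 and 112 CPM in somite-like cells, with a log2 difference of -4.32 ± 0.41 (SE; edgeR adjusted p = 9.09e-06). Pax1 had 0 UMIs in intermediate mesoderm-like cells and was at least 13.8-fold lower, again without a p. Of the 7 members 2 were called higher and 2, Pax1 among them, lower, beside 3.9% of all tested genes called, 1.85% higher and 2.05% lower. The median log2 difference was -0.65 over the members and -0.01 over all tested genes. Here too the member median counts Pax1 on the lower side and is no support for a shift of the members. Of the 8 testable nephric genes 4 were higher than in somite-like cells: Gfra1, Npnt, Robo2 and Wfdc2.

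**Figure D5:**
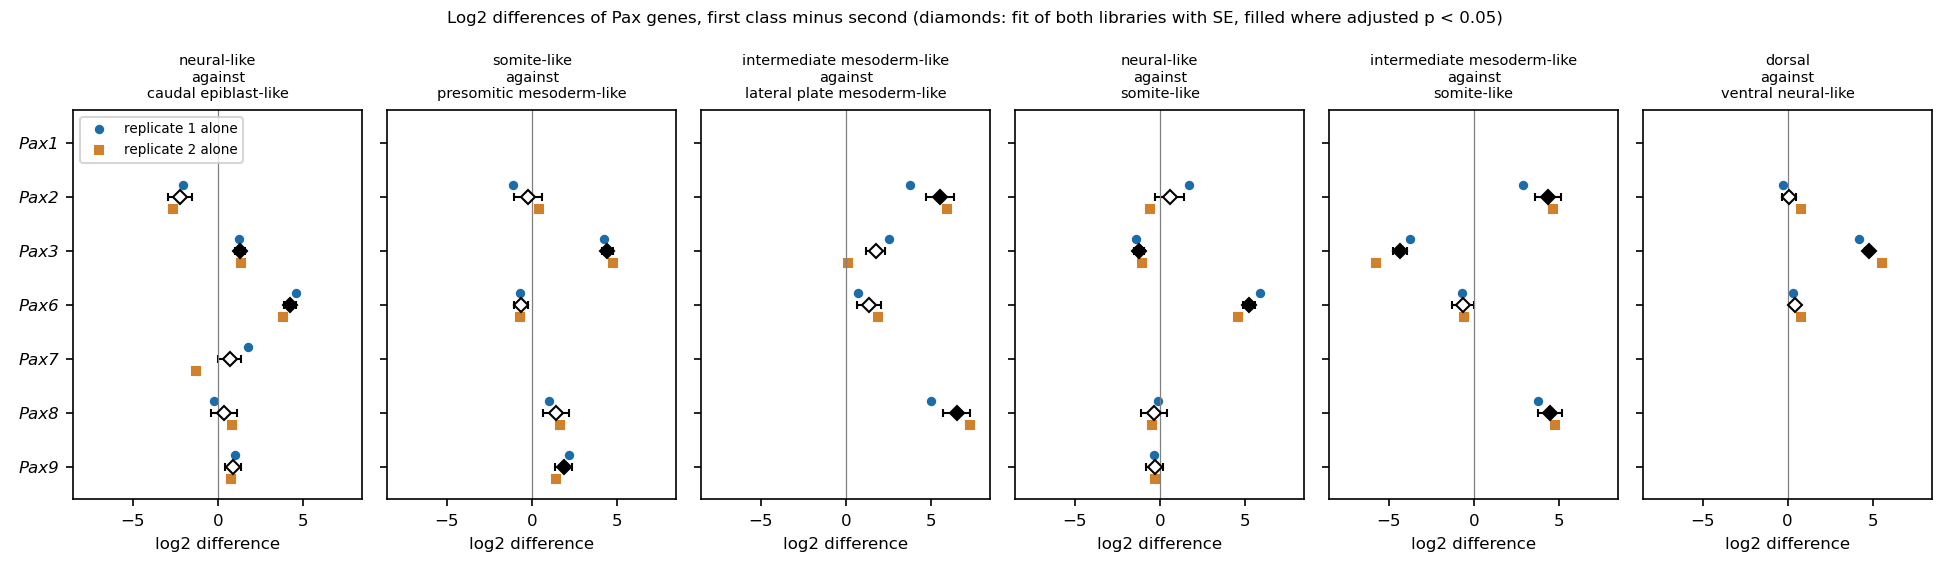
Log2 difference of each Pax gene (vertical axis) in the 6 comparisons, first class minus second (horizontal axis); diamonds are the edgeR fit of both libraries with its SE, filled where the adjusted p is under 0.05, circles replicate 1 alone and squares replicate 2 alone. Members with 3 or fewer UMIs in either class, and those the filter left out, are not drawn. In intermediate mesoderm-like against lateral plate mesoderm-like cells replicates 1 and 2 lie at 3.76 and 5.99 for Pax2 and at 5.00 and 7.32 for Pax8.

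Outside the mesoderm and neural classes, Pax9 marked endoderm-like cells and Pax2 was shared between endoderm-like and caudal epiblast-like cells. Pax9 had 24.2 CPM (21.8 to 26.8) and 17.8 CPM (13.6 to 22.9) in endoderm-like cells, above every other class in the order in both libraries. Notochord-like cells came next at 1.53 and 4.98 CPM. After thinning, 19.9% and 14.0% of endoderm-like cells had a Pax9 UMI, against 0.559% and 0.444% of endothelium-like cells. Pax2 had 36.1 CPM (33.2 to 39.2) and 25.8 CPM (20.7 to 31.9) in endoderm-like cells and 29.5 CPM (27.1 to 31.9) and 25.6 CPM (22.8 to 28.7) in caudal epiblast-like cells, and the ranges of the 2 classes over both libraries overlap, though endoderm-like cells were above within each. Both stood above the notochord-like level of 9.16 and 14.9 CPM. In replicate 1 the endoderm-like and caudal epiblast-like levels also exceeded the 16.8 CPM of intermediate mesoderm-like cells, so the leading Pax2 class differed between the libraries. Thinned shares with Pax2 were 24.8% and 17.1% in endoderm-like and 23.7% and 19.97% in caudal epiblast-like cells.

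Endoderm-like and caudal epiblast-like cells were also split by UMIs of single genes. These splits were chosen after their values were seen, rest on thinned counts and carry no test. Endoderm-like cells with a UMI of Cdx2, a hindgut factor, had 45.5 and 25.0 CPM of Pax2, against 16.5 and 4.76 CPM in those without, the last value resting on 1 UMI in 21 cells. Pax9 was at 24.9 and 15.7 CPM with Cdx2, against 18.7 and 19.0 CPM without, with no direction shared by the libraries. Caudal epiblast-like cells with a UMI of T (Brachyury), a primitive streak and mesoderm factor, had 36.0 and 26.4 CPM of Pax2, against 17.7 and 20.96 CPM without T. The intervals of the Pax2 levels with and without T overlap in replicate 2. With a UMI of Sox2, a neural and pluripotency factor, caudal epiblast-like cells had 24.5 and 21.8 CPM of Pax2, against 29.3 and 24.6 CPM without Sox2, and the intervals overlap in both libraries. Co-detection of Pax2 and Pax9 in endoderm-like cells had odds ratios of 1.05 (0.649 to 1.68) and 1.88 (0.608 to 5.24), both intervals including 1.

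Pax7 was rare, like Pax1, and among the 11 classes in the fit surface ectoderm-like cells led it. The few neural crest-like cells had 0 and 9.11 CPM, with 2 UMIs in replicate 2. Surface ectoderm-like cells had 48 and 28 UMIs (2.83 and 3.55 CPM), which was 42.5% and 49.1% of its UMIs in the kept cells. The thinned share of surface ectoderm-like cells with Pax7 was 2.62% and 3.34%, against 0 of 358 and 0 of 225 endothelium-like cells. Neural-like cells had 12 and 0 Pax7 UMIs (1.08 and 0 CPM), so its neural level was seen in 1 library. Pax3 was also present in surface ectoderm-like cells, at 21.8 and 24.1 CPM, and the thinned share was 15.3% and 14.9%. In the order of Pax3 levels, somite-like cells were above neural-like, neural-like above surface ectoderm-like and these above caudal epiblast-like cells in both libraries. Endoderm-like and notochord-like cells, which came next, were in opposite order in the libraries.

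Genes whose pattern over the 11 classes was most like that of a member were ranked by the lower of the 2 libraries' Pearson r of log2(CPM + 5), a description over classes that share their library. Class markers and the other Pax genes were left out. Pax6 was most like Ccdc177 (0.983), Gm29508 (0.983) and Fam181a (0.974). Pax1 was most like 2610016A17Rik (0.994), Dmrt2 (0.988) and the secreted antagonist Cer1 (0.987). Pax9 was most like Serpinb6c (0.985), the ligand Ihh (0.983) and the fatty acid binding protein gene Fabp1 (0.979). Pax3 was most like the kinase gene Nuak2 (0.879), the zinc finger gene Zic2 (0.818) and Gm12827 (0.816). Pax8 was most like the BMP antagonist Grem1 (0.854), Osr2 (0.795) and Gfra1 (0.746). The values of Pax2 were lower, with Pip5k1b (0.755), Prr15 (0.741) and Ttc5 (0.720). Pax7 had 75 and 44 UMIs over these classes and was not ranked.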

How the data were processed

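Caudal tissue of pooled wild-type embryos was profiled with a 5′ droplet kit in 2 libraries. The deposited matrices hold UMI counts per gene and barcode, for which the submitters' processing notes name Cell Ranger 6.1.1 and the build mm10. The sources used here give neither the annotation nor how barcodes were chosen. In the files, the lowest barcode in either library had 500 UMIs. Of the barcodes with at least 2000 UMIs (22519 and 13537), those with 0.3 to 10% mitochondrial UMIs were kept; in replicates 1 and 2, 11242 and 5184 lay under 0.3% and 33 and 25 over 10%.

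Each marker was put on a log scale after scaling cells to 10000 UMIs, standardised over the kept cells and limited to 5 SD, and the list mean was the score of a class. A cell took the class of its highest score where that score led by at least 0.5 and at least 2 markers were detected. Dorsal and ventral neural-like cells differed by at least 0.3 in score. Doublets were not removed; Scrublet, run through Scanpy 1.11.5, marked 8.63% and 5.49% of kept barcodes, and their removal was an alternative. Shares of cells with a UMI were taken after thinning each cell to 10000 UMIs, which left out shallower cells.

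UMIs were summed per class and library. Sums of 11 classes, and separately of the dorsal, ventral and remaining neural-like cells, were fitted with edgeR 4.0.16 (TMM scaling, its default expression filter, quasi-likelihood test, two-sided, Benjamini-Hochberg over all tested genes, threshold 0.05). Library was a block, since the classes of a library come from the same pool of cells. The SE given is the absolute log2 difference divided by the square root of the F statistic. The fit was tested on simulated data. A fold against a class at 0 used a floor of 3 counts over both libraries. Poisson, Clopper-Pearson and odds ratio intervals have 95% confidence and cover counting error only.

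All 7 members were looked at in every comparison. Those not named in a comparison did not pass its test or had 0 UMIs in both classes. Other genes are the 3 most like each member with at least 50 UMIs per library, and up to 4 genes past the test per list and comparison. Some listed genes, and the counts of the lists that hold them, are not reported here. Members, markers and lists were chosen with earlier results of these data known. Alternatives were DESeq2 1.42.0, no expression filter, no block, each library alone, a minimum of 4000 UMIs, barcodes under 0.3% included, a stricter gate (lead of 1.0; 0.5 for dorsal and ventral), Scrublet-marked barcodes removed and thinned counts. A minimum of 3 detected markers was added after seeing the data. Sequences were read from GENCODE M21 transcripts on GRCm38, the assembly that mm10 names.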

Additional observations from a re-analysis of the deposited data

Results flagged for a closer look

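Barcodes with under 0.3% mitochondrial UMIs were outside every comparison, and the Pax genes were read in them with the same gates. A value passed where it rested on more than 3 UMIs and the lower end of its 95% Poisson interval stood above the upper end for the same gene in endothelium-like barcodes of the same kind, of which there were 106 in replicate 1 and 38 in replicate 2. Pax6 in neural-like barcodes was at 78.4 and 73.2 CPM, with lower ends of 67.4 and 52.8 CPM against upper ends of 4.74 and 25.7 CPM in endothelium-like barcodes. Pax3 in somite-like barcodes was at 58.2 and 63.3 CPM, with lower ends of 50.5 and 51.8 CPM against upper ends of 9.29 and 25.7 CPM. Pax1 in somite-like barcodes passed in replicate 1, at 10.4 CPM on 37 UMIs. Pax8 in intermediate mesoderm-like barcodes was at 13.5 and 79.3 CPM, and Pax2 passed in replicate 2, at 80.3 CPM. Pax2 in replicate 1, at 13.45 CPM (8.33 to 20.6), did not pass against an upper end of 13.2 CPM. Pax9 in endoderm-like barcodes passed in replicate 1, at 15.1 CPM, and in replicate 2, at 19.3 CPM (8.83 to 36.6), did not pass against an upper end of 17.0 CPM. Replicate 2 was again the library with more Pax2 and Pax8 in intermediate mesoderm-like barcodes. Pax7 passed in neither library.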

How the results depend on the processing

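No call of a member reversed. Of the 319 log2 differences of members under the alternatives with both libraries, 304 kept their side of the threshold, 9 lost it and 6 gained it. Without the replicate block 1 member was called in neural-like against caudal epiblast-like cells, and over all genes 393 were called there, against 1133 with the block. The other counts over all genes without the block were 506 (main 1366) for somite-like against presomitic mesoderm-like, 124 (496) for intermediate against lateral plate mesoderm-like, 964 (1989) for neural-like against somite-like, 175 (563) for intermediate mesoderm-like against somite-like and 7 (262) for dorsal against ventral cells. With no expression filter the count for intermediate against lateral plate mesoderm-like cells was 755. For intermediate mesoderm-like against somite-like cells it was 360 with the stricter gate and 340 with at least 3 markers. For dorsal against ventral cells it was 142 with the stricter gate, 69 with DESeq2, 173 without Scrublet-marked barcodes and 133 on thinned counts, and the stricter gate called 2 members, Pax6 being the second.

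DESeq2 called 1 member in neural-like against somite-like cells. Pax3 there was at -1.22 on the log2 scale both with DESeq2 (adjusted p = 0.0546) and without the block (edgeR adjusted p = 0.0995). Of values from 1 library alone, Pax2 ranged over 3.76 to 5.99 for intermediate against lateral plate mesoderm-like cells and 2.93 to 4.67 against somite-like cells, replicate 1 being the lower. Pax2 in neural-like against caudal epiblast-like cells gained the call without the filter (edgeR adjusted p = 0.00279) and with at least 3 markers (0.0393). Pax3 in intermediate against lateral plate mesoderm-like cells gained it with DESeq2 (adjusted p = 0.0198), without the filter (edgeR, 0.0133) and with the stricter gate (edgeR, 0.0463). The mean Pax3 level in somite-like cells, 117 CPM, was 105 CPM with barcodes under 0.3% included, 127 CPM with the stricter gate and 124 CPM without Scrublet-marked barcodes. That of Pax7 in surface ectoderm-like cells was 3.79 CPM on thinned counts, against 3.19 CPM. The cause of these shifts was not tested. With 2 libraries, Pax1, Pax7 and, in replicate 1, Pax8 rest on few UMIs, so small differences in them were not detectable at this depth.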
